A study of Mus musculus with 6 samples.

Results

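The genes examined here are 45 genes of DNA replication and of the E2F pathway, chosen by name from their known roles and matched by symbol to the NCBI Gene identifiers of the counts. All 45 were found among the 27179 genes of the count tables, and all 45 were among the 14069 genes tested. The study asked which genes change when a single cryptochrome (CRY) is put back into mouse embryonic fibroblasts (MEFs) that lack the repressors of the circadian clock. mRNA was sequenced from 3 cell lines with 2 libraries each, made from independent RNA preparations of cells grown in DMEM with fetal bovine serum. The CPN-/- line has the genotype Cry1-/-, Cry2-/-, Per1-/-, Per2-/-, Nr1d1-/-, Nr1d2-/-, and both other lines carry the same deletions. The CPN-/- CRY1 line in addition expresses exogenous CRY1, and the CPN-/- CRY2 line exogenous CRY2, in each case from a viral promoter that the clock does not control. Each of these lines was raised from a single colony, so that the effect of the cryptochrome and the features of 1 clone cannot be told apart. The p-values given here measure the spread between RNA preparations of a line, not between clones.

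Before a cell copies its DNA, the origin recognition complex with CDC6 and CDT1 loads the MCM helicase on origins in G1, and the kinase CDC7 with DBF4, MCM10, CDC45 and the GINS complex switch it on in S phase. Primase and the polymerases then copy the strands, helped by the sliding clamp PCNA, its loader RFC and the single-strand binding protein RPA. The E2F factors, which the retinoblastoma protein holds back in resting cells, drive transcription of most of these genes at the G1 to S transition. In bulk mRNA, fewer cells in S phase and less mRNA per cell cannot be told apart.

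E2F factors bind a short GC-rich sequence, and it was looked for in the promoters of these genes as a description. Because the genes were chosen in part as E2F pathway genes, a higher share of E2F matches may come from the choice itself. RefSeq promoter windows (GRCm38.p6, from 250 bases before to 50 bases after a start site) were at hand for 38 of the 45 genes. The letters TTTCCCGC, TTTGGCGC, TTTCGCGC or TTTGCCGC were found on either strand in 15 of these 38 genes (39.5%), against 2.6% of all genes with a window and 4.7% of the tested ones, and in 31.9% of their windows, against 2.3% of all windows. The clock's E-box CACGTG, to which CLOCK and BMAL1 bind, was found in 8 genes (21.1%), against 8.1% of all genes and 11.6% of the tested ones, and in 17.0% of their windows, against 7.2% of all windows. The letters CCAAT were found in 25 genes (65.8%), against 41.1% of all genes and 43.3% of the tested ones, and in 61.7% of their windows, against 37.4% of all windows. Matches of the E2F letters can overlap each other, as they did in Mcm5 and Mcm6, and a match is a description of the letters and not of binding. Of the 9 genes called in any comparison below, 7 had a window, and E2f2 and Cdc6 held an E2F match. Stretches of 30 bases are shown for these, for the 4 MCM subunits with a match (added after it was seen that only E2f2 and Cdc6 qualified) and for Pola2, the called gene with an E-box. Each is read 5′ to 3′ on the strand of its gene, with the match in capitals.
E2f2: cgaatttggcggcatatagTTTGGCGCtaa
Cdc6: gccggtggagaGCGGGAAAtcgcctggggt
Mcm3: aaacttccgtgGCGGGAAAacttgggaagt
Mcm5: gcgccaagaacTTTCGCGCcaaaacgtcca
Mcm6: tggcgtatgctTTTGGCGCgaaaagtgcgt
Mcm7: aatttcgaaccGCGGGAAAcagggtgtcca
Pola2: ccgtgctggacaCACGTGtcagtcactgca

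These stretches lie at chr4:136172294-136172323 on the forward strand for E2f2, at chr11:98908002-98908031 on the forward strand for Cdc6 and at chr8:75109345-75109374 on the forward strand for Mcm5. On the reverse strand they lie at chr1:20820275-20820304 for Mcm3, at chr1:128359797-128359826 for Mcm6, at chr5:138172030-138172059 for Mcm7 and at chr19:5964410-5964439 for Pola2. The first base of the match was at 40 relative to the start site in E2f2, at 20 in Mcm3, at -138 in Cdc6, at -153 in Mcm5, at -110 in Mcm6, at -165 in Mcm7 and at -221 in Pola2.

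The libraries held 25957409 to 36106949 counts, and the 45 genes took 0.506% to 0.575% of them. Cry1 was highest in both CPN-/- CRY1 libraries (165 and 189.6 CPM, the counts scaled to an equal library size) and Cry2 in both CPN-/- CRY2 libraries (349 and 351 CPM). In CPN-/- itself Cry1 was at 125 and 115 CPM and Cry2 at 136 and 129 CPM. Per1, Per2, Nr1d1 and Nr1d2 also had 476 to 3756 counts in every library, and counts per gene do not separate a deleted transcript from an intact one. Of the fibroblast markers, Col1a1 (2179 to 3936 CPM) and Vim (2384 to 3642 CPM) were abundant, whereas Thy1 was at most 0.23 CPM and Dcn at most 2.24 CPM. The summed markers of epithelium, endothelium, blood and neural cells reached at most 0.482, 0.815, 2.34 and 0.499 CPM. Libraries of the CPN-/- line differed more from each other than those of the other lines, with an SD across genes of the log2 difference of 0.44 against 0.23 and 0.24, and they differed with transcript length. In the CPN-/- CRY1 line the genes of chromosomes 3, 15, 16 and 19 were shifted together. The values of both features are given beside the results that they touch.

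In the CPN-/- CRY1 line, Cdc6 and Mcm10, which act when replication starts, Rfc2 and Rpa3 of the clamp loader and the single-strand binding protein, and the factor E2f2 were called lower than in CPN-/-. The helicase subunit Mcm4 and the histone chaperone subunit Chaf1b were called higher. A gene was called when its adjusted p was under 0.05 in the quasi-likelihood test of edgeR, adjusted by Benjamini-Hochberg over all tested genes. Thus 5 of 45 genes (11.1%) were lower and 2 (4.4%) higher, against 13.1% and 11.2% of all tested genes. All 7 changes were smaller than 2-fold, between -0.84 and 0.38 on the log2 scale. The median log2 fold change of the 45 genes was -0.14, against -0.01 over all tested genes, and 35 of 45 values lay below 0 (77.8%, against 50.7%). In 25 genes both CPN-/- CRY1 libraries lay below both CPN-/- libraries, and in 7 they lay above, against 34% and 32.9% of all tested genes. The 95% confidence interval stayed within a log2 value of 1 either way for 43 genes and within 1.5-fold for 35. When CPN-/- replicate 1 was left out, 25 genes were lower and 6 higher, against 31.3% and 31.6% of all genes, and without CPN-/- replicate 2 they were 15 and 6, against 22.2% and 22%. Without CPN-/- CRY1 replicate 1, 0 genes were called, against 2.86% lower and 1.87% higher of all genes, and the edgeR adjusted p of the 7 genes was 0.076 to 0.22. Without CPN-/- CRY1 replicate 2, 0 were called, against 2.62% and 2.01%, and it was 0.068 to 0.29. Mcm10, Rfc2, Mcm4 and Chaf1b also lost their calls without either CPN-/- CRY2 library, which left 3 lower and 0 higher, against 7.04% and 5.43% of all genes without replicate 1 and 7.03% and 5.43% without replicate 2.

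In the CPN-/- CRY2 line only Rrm2, the small subunit of ribonucleotide reductase, was called, and it was lower than in CPN-/-. This is 1 of 45 genes lower (2.2%) and 0 higher, against 4.08% and 2.58% of all tested genes in edgeR's quasi-likelihood test. At an unadjusted p under 0.05, 10 of the genes were lower and 0 higher, against 12.8% and 11.6% of all tested genes, and DESeq2 called 2 lower and 0 higher, against 4.4% and 3.97%. The median log2 fold change was -0.19, against -0.01 over all tested genes, and 40 of 45 values lay below 0 (88.9%, against 50.9%). Both CPN-/- CRY2 libraries lay below both CPN-/- libraries for 29 genes and above them for 3, against 27.2% and 28% of all tested genes. The confidence intervals of all 45 genes stayed within a log2 value of 1, and those of 35 within 1.5-fold. Without CPN-/- replicate 1, 27 genes were lower and 1 higher, against 28% and 28.4% of all genes, and without CPN-/- replicate 2 they were 9 and 1, against 10.9% and 11.2%. The call of Rrm2 was lost without any single library of the CRY-expressing lines, with adjusted p of 0.093 without either CPN-/- CRY1 library and of 0.25 and 0.32 without CPN-/- CRY2 replicates 1 and 2.

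Set against each other directly, the CRY-expressing lines differed in Mcm4, Pola2, Rrm2 and Chaf1b, which were higher in CPN-/- CRY1. This is 4 of 45 genes higher (8.9%) and 0 lower, against 7.72% and 8.57% of all tested genes in edgeR's quasi-likelihood test. At an unadjusted p under 0.05, 6 genes were higher and 5 lower, against 15.1% and 15.7% of all tested genes, and DESeq2 called 4 and 0, against 8.22% and 8.5%. The median log2 fold change of CPN-/- CRY1 against CPN-/- CRY2 was 0.02, 21 of 45 values lay below 0, and the intervals of all 45 genes stayed within a log2 value of 1. The lines did not overlap in 33 genes, of which 17 were lower and 16 higher in CPN-/- CRY1, against 36.9% and 36.4% of all tested genes. Without either CPN-/- library, 8 genes were lower and 11 higher, against 24% and 24.4% of all genes without replicate 1 and 23.8% and 23.9% without replicate 2. The 4 calls were lost without any single library of the CRY-expressing lines, with adjusted p of 0.082 to 0.32, and in these fits 1.54% to 1.86% of all genes were called in each direction. The comparisons of the CRY-expressing lines with CPN-/- share the CPN-/- libraries, and so their values are given side by side and not compared with each other.

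**Figure D1:**
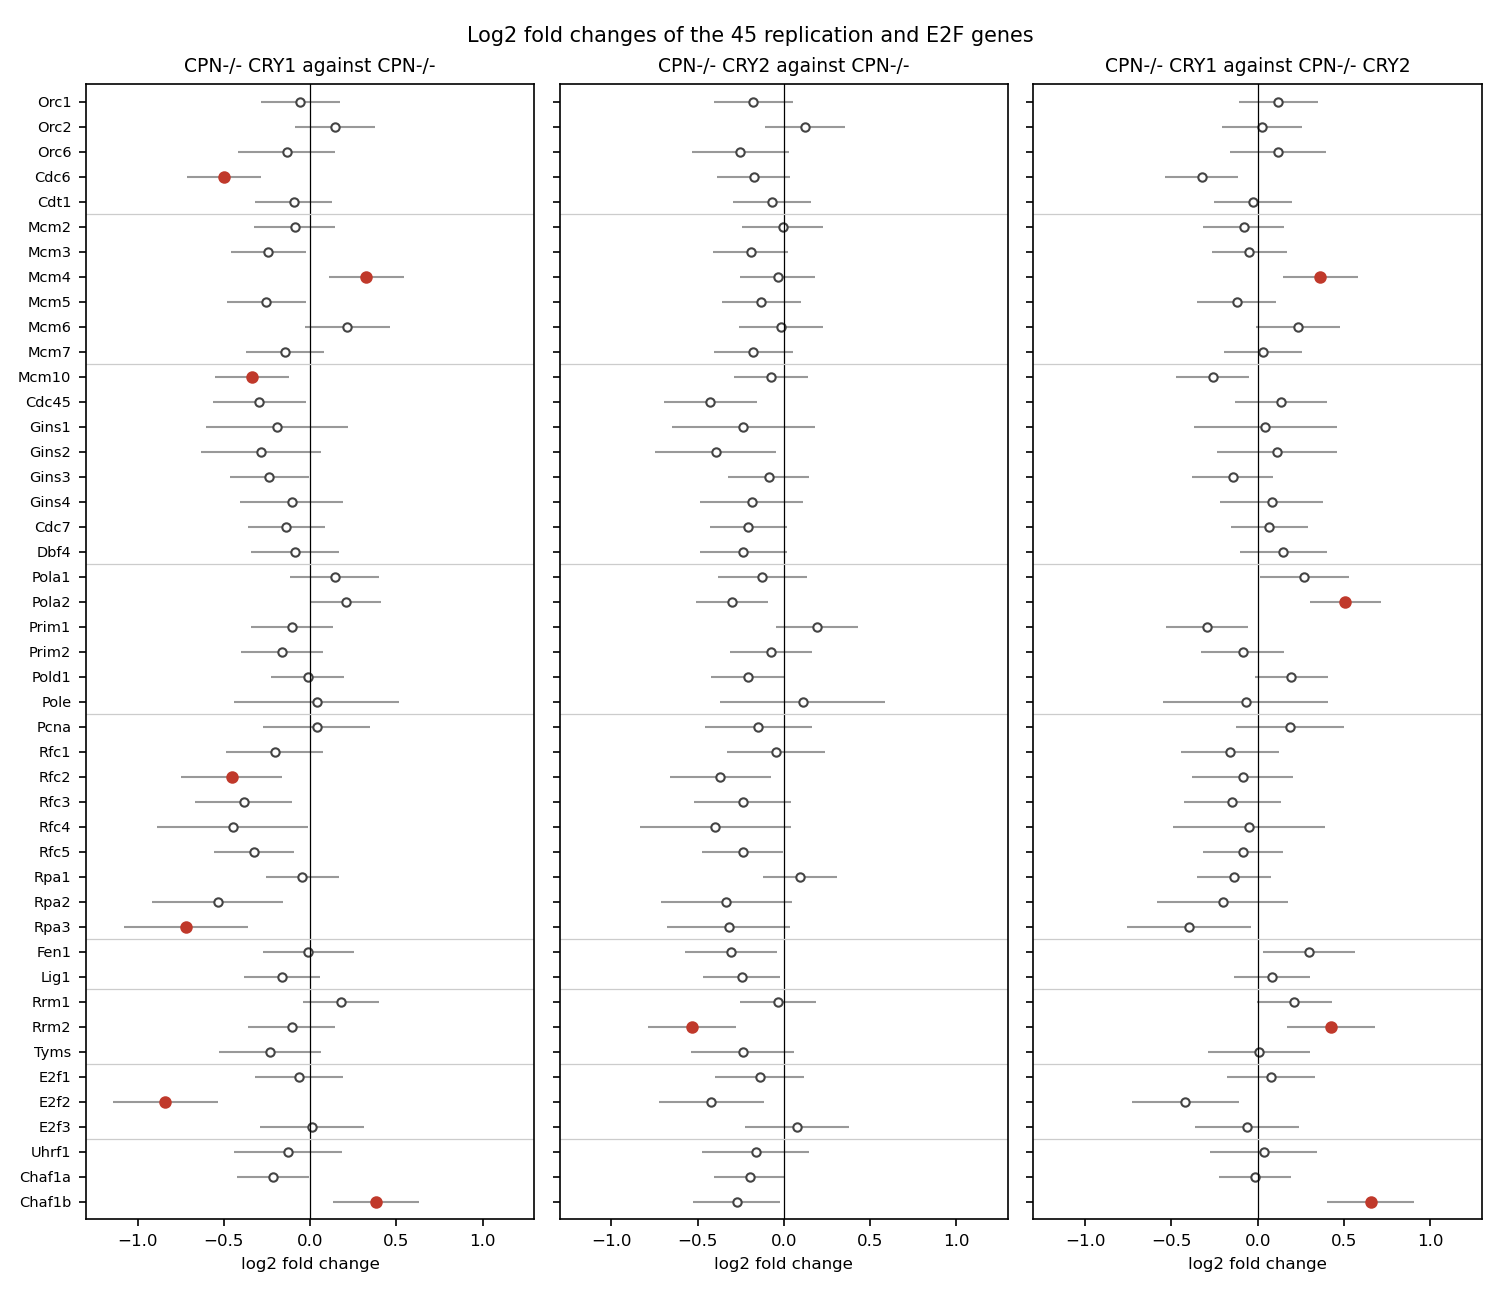
Log2 fold changes of the 45 genes (x axis) in the 3 comparisons, ordered by role from top to bottom, with 95% confidence intervals as lines. Filled red points passed an adjusted p of 0.05, and 35, 40 and 21 of the 45 points lie left of 0 in the panels from left to right.

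Among the genes that recognise origins and load the helicase, 1 of 5 was called, Cdc6, which brings the helicase to the origin recognition complex. Cdc6 (NCBI Gene identifier 23834, chr11:98907709-98923942 of mm10) was at 58.9 and 59.8 CPM in CPN-/-, 41.9 and 42.0 CPM in CPN-/- CRY1 and 51.8 and 53.4 CPM in CPN-/- CRY2. The lines did not overlap, with CPN-/- highest and CPN-/- CRY1 lowest. Its log2 fold change in CPN-/- CRY1 was -0.50 (standard error, SE, 0.09, edgeR adjusted p = 0.010). In CPN-/- CRY2 it was -0.17 (SE 0.09, edgeR adjusted p = 0.27), and the difference between the CRY-expressing lines, -0.33, had an edgeR adjusted p of 0.052. A processed pseudogene, Gm9430, holds 1260 bases of nearly identical sequence, so that its reads may be counted for Cdc6 or lost. Cdt1, the partner of Cdc6 in loading, had log2 fold changes of -0.10 and -0.07 against CPN-/-, and Orc1, Orc2 and Orc6, subunits of the origin recognition complex, lay between -0.25 and 0.15. Of the exons of Orc2, 1150 bases lie opposite exons of Nif3l1.

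The 6 subunits of the MCM2-7 helicase ring, which unwinds the DNA at the fork, did not move together in the CPN-/- CRY1 line. Mcm4 (identifier 17217, chr16:15623897-15637400) was at 256 and 264 CPM in CPN-/-, 318 and 333 CPM in CPN-/- CRY1 and 251 and 256 CPM in CPN-/- CRY2. Both CPN-/- CRY1 libraries lay above all others, and those of CPN-/- CRY2 lay at or just below those of CPN-/-. Mcm4 was higher in CPN-/- CRY1 than in CPN-/- by 0.33 on the log2 scale (SE 0.09, edgeR adjusted p = 0.042) and higher than in CPN-/- CRY2 by 0.36 (SE 0.09, edgeR adjusted p = 0.039). The call against CPN-/- was lost in 9 of 17 alternatives, among them upper-quartile scaling (edgeR adjusted p = 0.057). Subtracting the chromosome median gives no p-value and is counted among the 17 as a kept call, because the sign held. The median of all tested genes of chromosome 16 was 0.27 and 0.35 in these comparisons, and 0.05 and 0.01 of the differences of Mcm4 remained after it was subtracted.

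Mcm6 was at 306 and 338 CPM in CPN-/-, 383 and 365 CPM in CPN-/- CRY1 and 307 and 330 CPM in CPN-/- CRY2. Its CPN-/- CRY1 libraries were the highest, but the difference from CPN-/- did not pass, with 0.22 on the log2 scale and a 95% confidence interval from -0.03 to 0.46. The other subunits pointed the other way. Mcm3 was at 285 and 299 CPM in CPN-/-, 245 and 248 CPM in CPN-/- CRY1 and 250.1 and 260.2 CPM in CPN-/- CRY2. Mcm5 was at 278 and 297 CPM, 238 and 244 CPM, and 253 and 272 CPM in the same order, and Mcm7 at 182 and 198 CPM, 171 and 172 CPM, and 163 and 172 CPM. For these 3 subunits every library of the CRY-expressing lines lay below both CPN-/- libraries, but the edgeR adjusted p was 0.096 for Mcm3 (log2 fold change -0.24), 0.098 for Mcm5 (-0.25) and 0.28 for Mcm7 (-0.15) in CPN-/- CRY1. The values for CPN-/- CRY2 were -0.19, -0.13 and -0.18. Mcm2 was at 299.6 and 269 CPM in CPN-/-, 267 in both CPN-/- CRY1 libraries, and 279 and 287 CPM in CPN-/- CRY2, with log2 fold changes of -0.09 and -0.01.

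Because the ring holds each subunit once, the shares of the subunits within the summed MCM mRNA were compared as a description. Mcm4 took 15.9% and 15.8% of the summed MCM CPM in CPN-/-, while its share was 19.6% and 20.5% in the CPN-/- CRY1 libraries and 16.7% and 16.2% in those of CPN-/- CRY2. The sum over the subunits itself was 1606 and 1664 CPM in CPN-/-, 1623 and 1629 CPM in CPN-/- CRY1 and 1503 and 1577 CPM in CPN-/- CRY2. Hence the CPN-/- CRY1 sums lay between the CPN-/- sums while the makeup differed. Per kilobase of transcript the mean level in CPN-/- ran from 64.1 CPM for Mcm7 to 85.0 CPM for Mcm3, and in CPN-/- CRY1 Mcm4 was the highest of the 6 at 90.8 CPM per kilobase. In CPN-/- CRY2 Mcm2 was the highest at 81.0 CPM per kilobase.

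**Figure D2:**
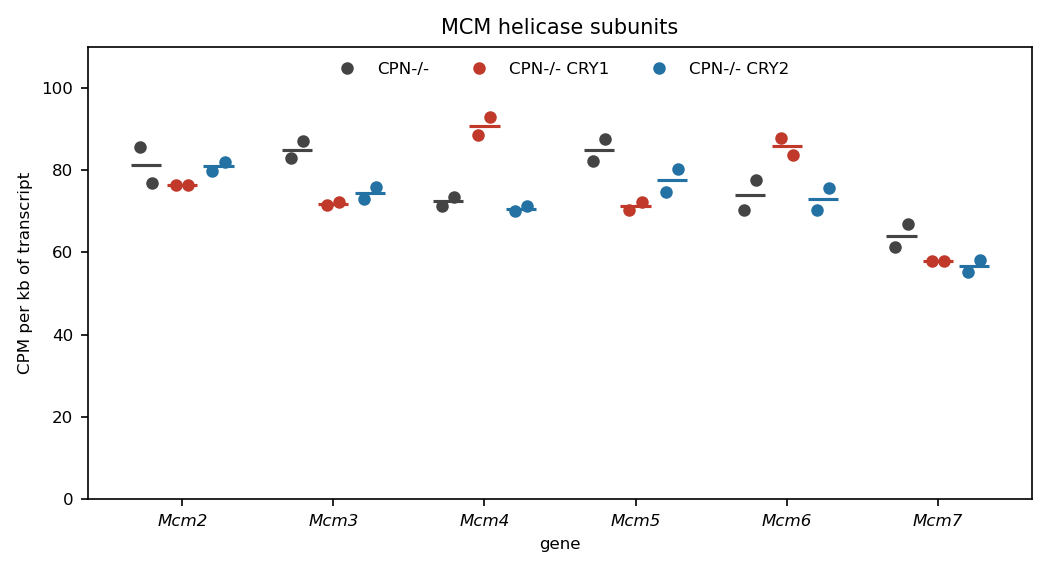
Level of each MCM subunit in CPM per kilobase of transcript (y axis). Points are the 2 libraries of a line, and the bar is their mean. Only Mcm4 and Mcm6 have both CPN-/- CRY1 libraries above the libraries of both other lines.

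Among the 8 genes that turn the loaded helicase into an active one, all 8 log2 fold changes lay below 0 against CPN-/- in each CRY-expressing line. Of these genes 1 was called, lower in CPN-/- CRY1 (12.5%, against 13.1% of all tested genes). The common direction depended on the CPN-/- libraries. Without the length trend Gins1 (0.07), Gins4 (0.13) and Dbf4 (0.04) lay above 0 in CPN-/- CRY1, and Gins3 (0.03) and Gins4 (0.0008) in CPN-/- CRY2. Without CPN-/- replicate 2, Gins1 (0.09) and Gins4 (0.05) did so in CPN-/- CRY1, and Gins1 (0.05) in CPN-/- CRY2. Mcm10 (identifier 70024, on chromosome 2) binds the ring when the fork starts, and was at 52.6 and 52.9 CPM in CPN-/-, 42.0 and 41.6 CPM in CPN-/- CRY1 and 51.0 and 49.3 CPM in CPN-/- CRY2. Its CPN-/- CRY1 libraries were the lowest, and the CPN-/- CRY2 libraries lay just below those of CPN-/-. The difference of CPN-/- CRY1 was -0.34 on the log2 scale (SE 0.09, edgeR adjusted p = 0.037). Its call was lost in 8 of 17 alternatives, among them the test of genes with at least 1 count in any library (edgeR adjusted p = 0.059). For CPN-/- CRY2 the difference was -0.07 (edgeR adjusted p = 0.62). Cdc45, which joins the ring and GINS in the active helicase, had the largest difference of this group in CPN-/- CRY2, with -0.43 on the log2 scale (95% confidence interval -0.70 to -0.16, edgeR adjusted p = 0.082). It was at 78.4 and 92.6 CPM in the CPN-/- libraries, and without the length trend the CPN-/- CRY2 value was -0.27 (edgeR adjusted p = 0.039). Cdc45 lies on chromosome 16, and with the median of that chromosome subtracted the CPN-/- CRY2 value was -0.34. Its log2 fold change in CPN-/- CRY1 was -0.29, or -0.57 with that median subtracted. The 4 GINS subunits had log2 fold changes from -0.29 to -0.11 in the CPN-/- CRY1 line and from -0.40 to -0.09 in the CPN-/- CRY2 line, and of Gins2 2758 bases of exon lie opposite exons of Gse1. Cdc7 and Dbf4, kinase and activator, had values of -0.14 and -0.09 in CPN-/- CRY1 and of -0.21 and -0.23 in CPN-/- CRY2.

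The genes of the polymerases and of primase were not called against CPN-/- in either line, with log2 fold changes from -0.16 to 0.21 in the CPN-/- CRY1 line and from -0.30 to 0.19 in the CPN-/- CRY2 line. Pola2 (identifier 18969, chr19:5940543-5964238) encodes the regulatory subunit of polymerase alpha, and was at 84.7 and 85.7 CPM in CPN-/-, 97.6 and 99.1 CPM in CPN-/- CRY1 and 69.0 and 69.4 CPM in CPN-/- CRY2. The lines did not overlap, with CPN-/- in the middle. The difference between the CRY-expressing lines was 0.51 on the log2 scale (SE 0.09, edgeR adjusted p = 0.010), whereas those from CPN-/- were 0.21 (edgeR adjusted p = 0.12) and -0.30 (edgeR adjusted p = 0.10). The median of all tested genes of chromosome 19 was 0.46 between the CRY-expressing lines, which left 0.05 for Pola2. Pola1, the catalytic subunit, had a difference of 0.27 in the same comparison (edgeR adjusted p = 0.15), and Prim1, the catalytic subunit of primase, one of -0.30 (edgeR adjusted p = 0.094). Prim2, Pold1 and Pole lay between -0.21 and 0.11 in the comparisons with CPN-/-. Pole, catalytic subunit of the leading strand polymerase, was at 109.7 and 68.5 CPM in the CPN-/- libraries, the widest gap among the 45 genes, and the 4 other libraries lay between them at 91.7 to 97.7 CPM.

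The sliding clamp gene Pcna was not called in the fit on which the calls above rest. The clamp, its loader and RPA together had the lowest median of the role groups in the CPN-/- CRY1 line. Pcna was at 196 and 249.9 CPM in CPN-/-, 230.2 and 227 CPM in CPN-/- CRY1 and 195 and 207 CPM in CPN-/- CRY2. The CPN-/- libraries enclosed nearly all the others, and the log2 fold changes were 0.04 (95% confidence interval -0.27 to 0.35) and -0.15 (-0.46 to 0.16). The value depended on the CPN-/- libraries. In CPN-/- CRY1 it was 0.23 without CPN-/- replicate 2 and 0.26 without the length trend (edgeR adjusted p = 0.023). In CPN-/- CRY2 it was -0.31 without CPN-/- replicate 1. A fit without 1 CPN-/- library holds no spread within that line, so that only its effect size is given. Between the CRY-expressing lines the log2 difference of Pcna was 0.19 (edgeR adjusted p = 0.40). It passed in the fit to their 4 libraries alone (edgeR adjusted p = 0.0052), which called 24.5% of all genes lower and 25.2% higher. Per kilobase Pcna was the most abundant of the 45 genes in each line, at 147, 151 and 132 CPM.

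Over the 9 genes of the clamp, the clamp loader and RPA, 2 were lower in CPN-/- CRY1 (22.2%) and 0 higher in edgeR's quasi-likelihood test, against 13.1% and 11.2% of all tested genes, and the median log2 fold change was -0.39. Rfc2 (identifier 19718, on chromosome 5), a small subunit of the clamp loader, was at 99.5 and 123 CPM in CPN-/-, 82.3 and 79.8 CPM in CPN-/- CRY1 and 82.9 and 89.3 CPM in CPN-/- CRY2. Both CRY-expressing lines lay below both CPN-/- libraries. For CPN-/- CRY1 it gave -0.46 on the log2 scale (SE 0.12, edgeR adjusted p = 0.038), and for CPN-/- CRY2 -0.37 (SE 0.12, edgeR adjusted p = 0.14). Without CPN-/- replicate 2 the value for CPN-/- CRY1 was -0.29, and without replicate 1 it was -0.60. Of its exons, 952 bases lie opposite exons of Lat2. Rpa3 (identifier 68240, on chromosome 6), the smallest subunit of the single-strand binding protein, was at 22.8 and 29.9 CPM in CPN-/-, 15.5 and 16.4 CPM in CPN-/- CRY1 and 19.99 and 22.1 CPM in CPN-/- CRY2. The lines did not overlap, but the CPN-/- libraries were far apart. For CPN-/- CRY1 it gave -0.72 on the log2 scale (SE 0.15, edgeR adjusted p = 0.017), and for CPN-/- CRY2 -0.32 (SE 0.15, edgeR adjusted p = 0.24). With each library's trend with transcript length removed, that in CPN-/- CRY1 was -0.42. Rpa2, Rfc5 and Rfc3 came close to the threshold in CPN-/- CRY1, with log2 fold changes of -0.54, -0.33 and -0.39 and edgeR adjusted p of 0.051, 0.052 and 0.055. Without the length trend they had -0.33, -0.32 and -0.28 (edgeR adjusted p = 0.031, 0.021 and 0.045), in a fit that called 17% of all tested genes lower. Without CPN-/- replicate 2 they had -0.27, -0.23 and -0.24. Rpa2 was at 79.5 and 111 CPM in the CPN-/- libraries. Rpa1, the large subunit, had values of -0.04 and 0.09, so that the subunits of RPA differed in their values. Transcripts of Rpa1, Rpa2 and Rpa3 have 5077, 1813 and 682 bases, and the part of length in this was not tested.

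Fen1 and Lig1, which trim and seal the fragments of the lagging strand, were not called, with log2 fold changes of -0.01 and -0.16 in CPN-/- CRY1 and of -0.31 and -0.24 in CPN-/- CRY2. Fen1 lies on chromosome 19, and an antisense gene, Gm10143, covers 1909 bases of its exons.

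In the supply of nucleotides the subunits of ribonucleotide reductase, which makes deoxyribonucleotides, differed. Rrm2 (identifier 20135, chr12:24708254-24714146), the subunit whose level limits the enzyme in S phase, was at 109.6 and 117 CPM in CPN-/-, 97.8 and 112 CPM in CPN-/- CRY1 and 80.4 and 76.2 CPM in CPN-/- CRY2. Both CPN-/- CRY2 libraries lay below all others, while the CPN-/- and CPN-/- CRY1 libraries overlapped. The log2 fold change of CPN-/- CRY2 was -0.53 (SE 0.11, edgeR adjusted p = 0.033), and Rrm2 was higher in CPN-/- CRY1 than in CPN-/- CRY2 by 0.43 (SE 0.11, edgeR adjusted p = 0.039). For CPN-/- CRY1 against CPN-/- it was -0.11 (edgeR adjusted p = 0.47). Chromosome 12 had a median of 0.04 and 0.02 in the comparisons in which Rrm2 was called, and Rrm2 kept -0.57 and 0.41 with these subtracted. Processed pseudogenes hold 193 and 419 bases of nearly identical sequence. Rrm1, the large subunit, was among the most abundant of the genes, with log2 fold changes of 0.18 and -0.04, and Tyms, thymidylate synthase, had values of -0.23 and -0.24.

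Of the activating E2F factors, E2f2 was called in CPN-/- CRY1 and had the largest log2 fold change of the 45 genes there, but it was also the least abundant. E2f2 (identifier 242705, chr4:136172274-136196057) was at 9.27 and 9.75 CPM in CPN-/-, 5.20 and 5.42 CPM in CPN-/- CRY1 and 6.76 and 7.45 CPM in CPN-/- CRY2, from 167 to 295 counts. The lines did not overlap, with CPN-/- highest and CPN-/- CRY1 lowest. The difference of CPN-/- CRY1 was -0.84 on the log2 scale (SE 0.13, edgeR adjusted p = 0.0057), which is a fall of 44.2%. It was -0.42 in CPN-/- CRY2 (SE 0.13, edgeR adjusted p = 0.11) and -0.42 between the CRY-expressing lines (edgeR adjusted p = 0.074). E2f1 was at 88.7 and 104 CPM in CPN-/-, 93.7 and 91.0 CPM in CPN-/- CRY1 and 89.0 and 86.1 CPM in CPN-/- CRY2. E2f3 was at 29.4 and 25.3 CPM, 25.5 and 29.7 CPM, and 29.7 and 27.9 CPM in the same order. The CPN-/- and CPN-/- CRY1 libraries overlapped for both. Their log2 fold changes were -0.06 and -0.14 for E2f1 and 0.01 and 0.07 for E2f3, all with intervals that included 0. Per kilobase E2f1 was the most abundant of these factors in CPN-/-, at 35.0 CPM, followed by E2f3 at 5.36 CPM and E2f2 at 2.01 CPM.

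Of the genes that copy chromatin with the DNA, Chaf1b was called. Chaf1b (identifier 110749, chr16:93883900-93906115), the middle subunit of the histone chaperone CAF-1, was at 69.4 and 78.7 CPM in CPN-/-, 95.3 and 97.3 CPM in CPN-/- CRY1 and 58.5 and 63.9 CPM in CPN-/- CRY2. The lines did not overlap, with CPN-/- CRY1 highest. It was higher in CPN-/- CRY1 than in CPN-/- by 0.38 on the log2 scale (SE 0.11, edgeR adjusted p = 0.041) and higher than in CPN-/- CRY2 by 0.65 (SE 0.11, edgeR adjusted p = 0.0085). The first of these calls was lost in 7 of 17 alternatives, among them upper-quartile scaling (edgeR adjusted p = 0.058). With the chromosome 16 median subtracted, 0.11 and 0.31 remained. Against CPN-/-, its CPN-/- CRY2 log2 fold change was -0.27 (edgeR adjusted p = 0.18). Chaf1a, the large subunit of CAF-1, had values of -0.21 and -0.20 against CPN-/-, and 4648 bases of its exons lie opposite exons of Ubxn6. Uhrf1, which guides maintenance methylation to new DNA, had values of -0.13 and -0.16.

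**Figure D3:**
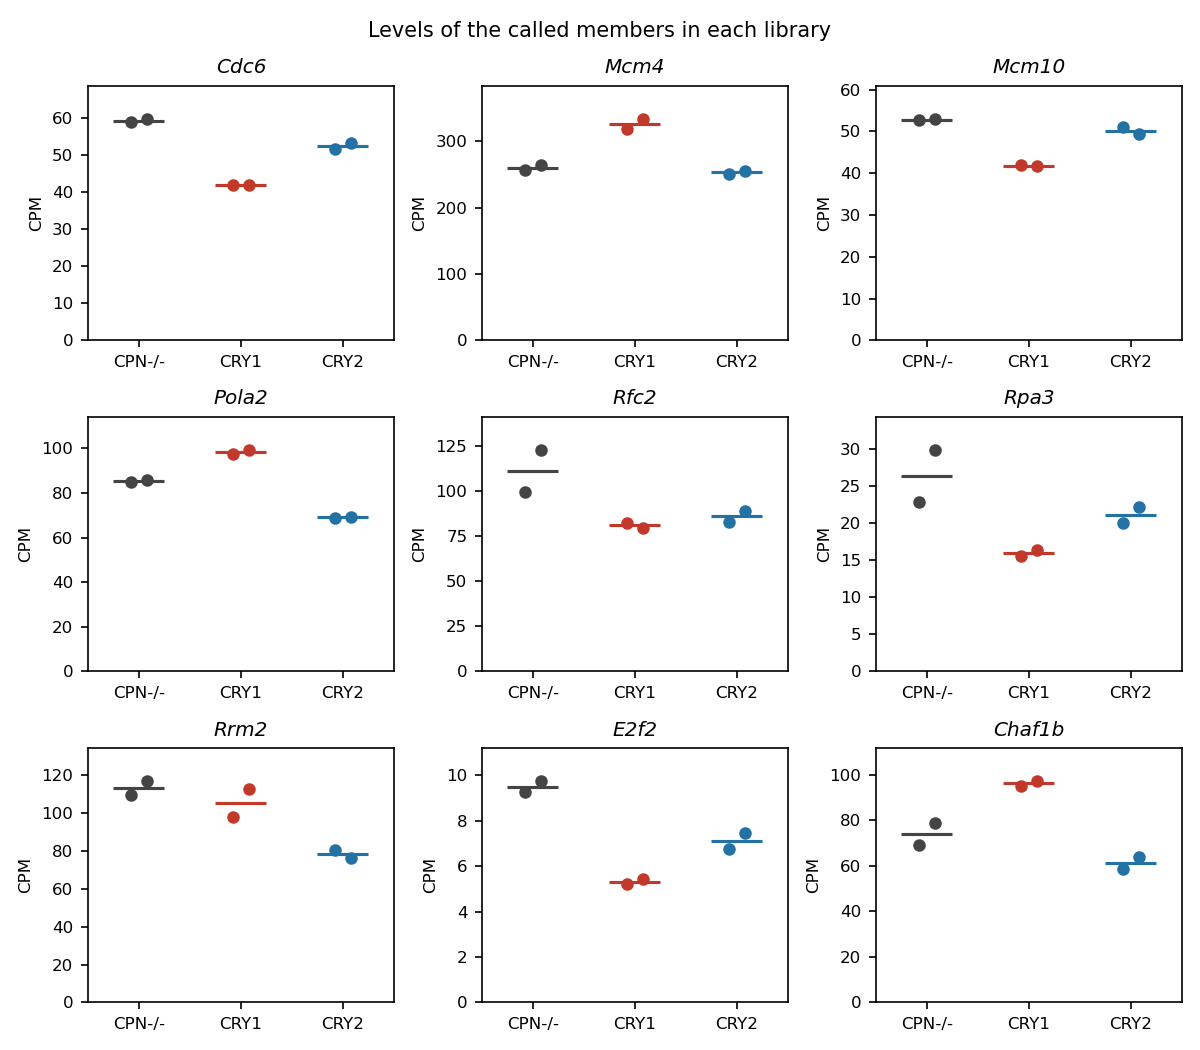
CPM (y axis, from 0) of the 9 genes called in at least 1 comparison, with a point for each library and a bar for the mean of a line. CRY1 and CRY2 stand for the CPN-/- CRY1 and CPN-/- CRY2 lines. The CPN-/- CRY1 libraries are the lowest for Cdc6, Mcm10, Rpa3 and E2f2 and the highest for Mcm4, Pola2 and Chaf1b, and for Rfc2 the CRY-expressing lines lie close together below CPN-/-.

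The chromosome on which a gene lies bears on the called genes. In CPN-/- CRY1 against CPN-/-, the median log2 fold change of all tested genes was 0.27 on chromosome 16, 0.31 on chromosome 19, -0.36 on chromosome 15 and -0.28 on chromosome 3, and against CPN-/- CRY2 it was 0.35, 0.46, -0.43 and -0.40. In CPN-/- CRY2 against CPN-/- it was -0.09, -0.17, 0.05 and 0.11. With the median of their chromosome subtracted, the genes called lower in CPN-/- CRY1 had -0.39 for Cdc6, -0.59 for Rpa3, -0.37 for Mcm10, -0.46 for Rfc2 and -0.86 for E2f2. Of the 45 genes, Mcm4, Cdc45, Rfc4 and Chaf1b lie on chromosome 16, Pola2 and Fen1 on chromosome 19, and none on chromosomes 3 and 15. Both genes called higher against CPN-/-, and Mcm4, Chaf1b and Pola2 of the 4 called higher against CPN-/- CRY2, are among these 6. Among the 39 genes on other chromosomes, 5 were lower and 0 higher in CPN-/- CRY1 than in CPN-/-. Of all tested genes, on all chromosomes, 13.1% were lower and 11.2% higher. Rrm2 was the gene that remained higher than in CPN-/- CRY2, a comparison in which 7.72% of all tested genes were called higher. The median of these 39 genes against CPN-/- was -0.14 for the CPN-/- CRY1 line and -0.18 for the CPN-/- CRY2 line, on the log2 scale. Rfc4, a clamp loader subunit, and Cdc45 had negative values in spite of lying on chromosome 16. The part of the chromosome shift in the levels of these genes was not tested.

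**Figure D4:**
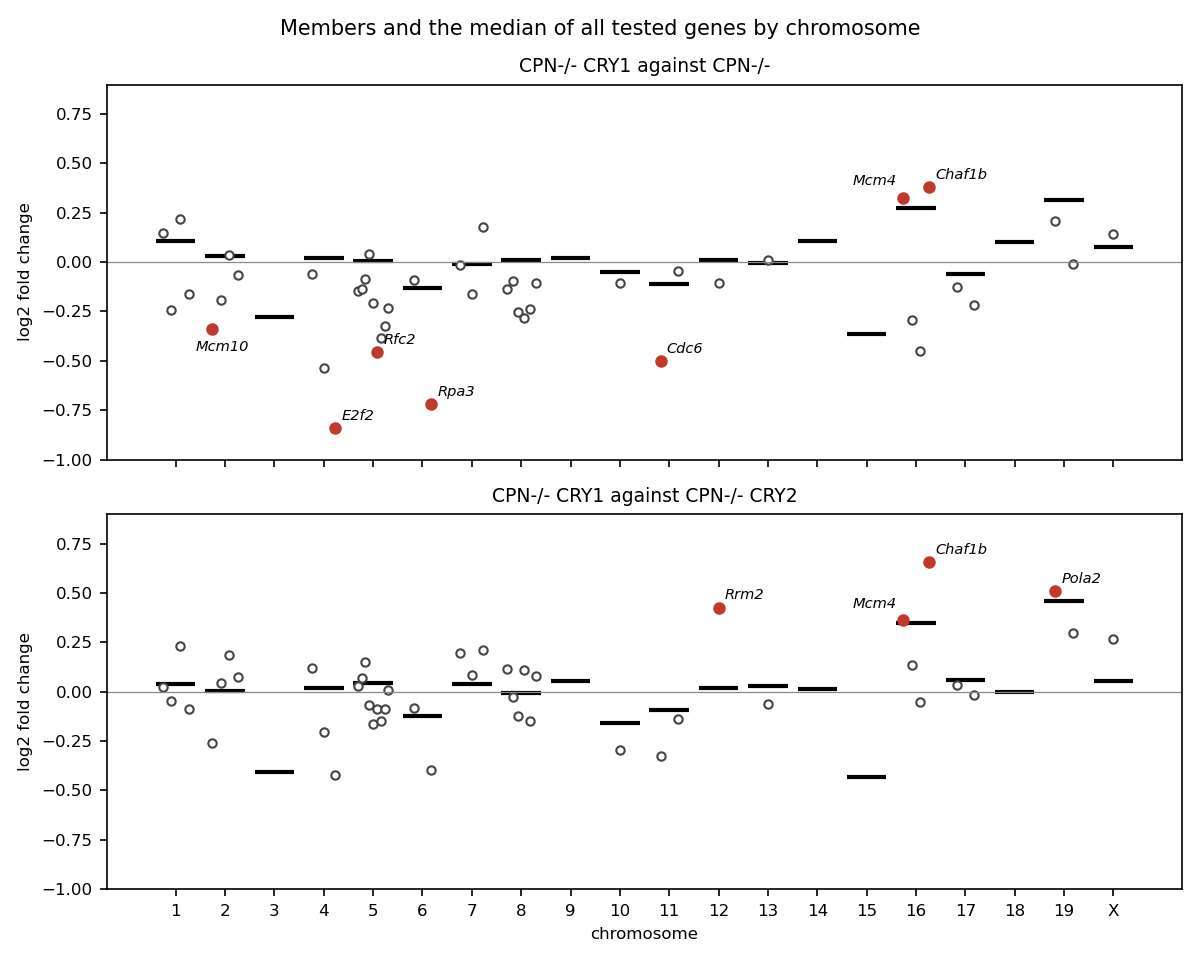
Log2 fold change (y axis) of each of the 45 genes by chromosome (x axis), with a black bar at the median of all tested genes of that chromosome and called genes in red. Mcm4 in both panels and Pola2 in the lower panel lie near the bar of their chromosome, whereas E2f2, Rpa3, Cdc6, Rfc2 and Rrm2 lie away from it.

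Transcript length bears on the comparisons with CPN-/-. Of the 45 genes, 35 were higher in CPN-/- replicate 2 than in replicate 1, with log2 differences between -0.68 for Pole and 0.58 for Rfc4 (median 0.09), and 9 genes differed by more than 0.3. The 11 genes with transcripts under 2500 bases were all higher in replicate 2, and the Spearman correlation of the difference with length was -0.63 across the 45 genes, which share the libraries and are not independent replicates. It was -0.62 across 13242 tested genes. Cdc6, Mcm10 and E2f2, with transcripts of 4802, 4867 and 4739 bases, differed by at most 0.07 between these libraries, while Rpa3, of 682 bases, differed by 0.39. With each library's trend with length removed, 27 of the 45 log2 fold changes in CPN-/- CRY1 lay below 0 (60.0%) in place of 35, and 36 in CPN-/- CRY2 (80.0%) in place of 40. That fit called 11 genes lower and 4 higher in the CPN-/- CRY1 line, against 17% and 21.4% of all tested genes. The summed CPM of the 45 genes was 5446 and 5730 in the CPN-/- libraries, 5338 and 5383 in those of CPN-/- CRY1 and 5065 and 5183 in those of CPN-/- CRY2, so that the CPN-/- libraries lay above the others and also farther apart than the libraries of the other lines.

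**Figure D5:**
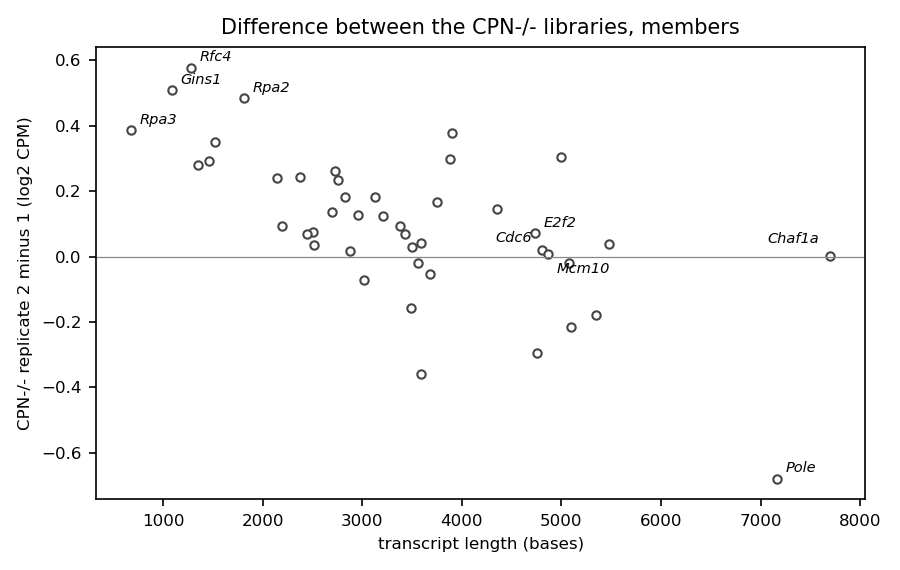
Log2 difference in CPM between the CPN-/- libraries (y axis, replicate 2 minus replicate 1) against transcript length in bases (x axis), with a point for each of the 45 genes. The shortest transcripts lie at the top left, and Pole lies lowest at -0.68.

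A further 57 genes of replication and E2F control, outside the 45, were called about as often as all tested genes in CPN-/- CRY1. In CPN-/- CRY1 against CPN-/-, 6 of them were lower (10.5%) and 7 higher (12.3%) in edgeR's quasi-likelihood test, against 13.1% and 11.2% of all tested genes, with a median log2 fold change of -0.07. Recql4, a helicase needed to start replication, was the lowest of these with -1.38 (edgeR adjusted p = 4.5e-04), and it lies on chromosome 15. Dna2, a nuclease that processes lagging strand flaps, was higher by 0.89 (edgeR adjusted p = 0.0060), and E2f6, a repressor of the E2F family, by 0.68 (edgeR adjusted p = 0.0075). In CPN-/- CRY2, E2f6 was higher by 0.62 (edgeR adjusted p = 0.023), and no further gene of this list was called in edgeR's quasi-likelihood test, so that 0 were lower and 1 higher (1.8%), against 4.08% and 2.58% of all tested genes. At an unadjusted p under 0.05, 9 were lower and 2 higher there (15.8% and 3.5%), against 12.8% and 11.6% of all tested genes. DESeq2 called 2 and 1, against 4.4% and 3.97% of all genes. Between the CRY-expressing lines 3 were lower and 3 higher in CPN-/- CRY1 (5.3% each, against 8.57% and 7.72% of all tested genes), among them Recql4 (-1.18, edgeR adjusted p = 7.9e-04), Dna2 (0.84, edgeR adjusted p = 0.0088) and Rb1, the retinoblastoma gene (0.55, edgeR adjusted p = 0.034). Rb1 was at 12.4 and 9.98 CPM in CPN-/-, 19.01 and 19.04 CPM in CPN-/- CRY1 and 13.2 and 12.8 CPM in CPN-/- CRY2.

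Markers of dividing cells were set beside these values, since replication genes follow the share of cycling cells. Of 12 genes of dividing cells, Top2a (-0.45 on the log2 scale), Cdk1 (-0.51) and Birc5 (-0.77) were lower in CPN-/- CRY1 than in CPN-/- and 0 were higher in edgeR's quasi-likelihood test, against 13.1% and 11.2% of all tested genes. At an unadjusted p under 0.05, 4 were lower and 2 higher (33.3% and 16.7%), against 21.3% and 18.9% of all tested genes. DESeq2 called 3 lower and 1 higher, against 12.6% and 12.3% of all genes. The 2 higher at an unadjusted p were Mki67 and Plk1, named after their values were seen. Mki67 had 0.54 on the log2 scale (95% confidence interval 0.09 to 0.98, edgeR adjusted p = 0.078). Plk1 had 0.24 (0.0056 to 0.47, edgeR adjusted p = 0.12). Mki67 was at 605 and 400.2 CPM in the CPN-/- libraries. The called genes also differed between these libraries, with 913 and 748 CPM for Top2a, 494 and 616 for Cdk1 and 132 and 193 for Birc5. Their CPN-/- CRY1 libraries lay below both, at 590 and 622, 398 and 384, and 96.0 and 94.6 CPM. Top2a and Birc5 lie on chromosome 11. With the median of their chromosome subtracted, -0.34 remained for Top2a, -0.46 for Cdk1 and -0.66 for Birc5. The median log2 fold change of the list was -0.11. In CPN-/- CRY2 0 were called in edgeR's quasi-likelihood test, against 4.08% lower and 2.58% higher of all tested genes, and the median was -0.08. At an unadjusted p under 0.05, 1 was lower and 0 higher there, against 12.8% and 11.6% of all tested genes. DESeq2 called 0, against 4.4% lower and 3.97% higher of all genes. Between the CRY-expressing lines Top2a was lower in CPN-/- CRY1 in edgeR's quasi-likelihood test (-0.46 on the log2 scale). This is 1 of 12 genes lower (8.3%) and 0 higher, against 8.57% and 7.72% of all tested genes. The summed CPM of these markers was 3085 and 2959 in the CPN-/- libraries, 2728 and 2810 in those of CPN-/- CRY1 and 3031 and 3025 in those of CPN-/- CRY2. Hence both CPN-/- CRY1 libraries had the lowest sums, and the CPN-/- CRY2 libraries lay between the CPN-/- libraries. Mki67, Top2a and Cdk1 had the highest CPM of the 12 genes in every library and so weighed most in these sums. The part of the share of dividing cells in the levels of the 45 genes was not tested.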

How the data were processed

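mRNA of 3 MEF lines was sequenced by the authors from stranded libraries as paired-end reads, mapped to mm10 with STAR and counted per gene with featureCounts. The annotation, the strand setting and the handling of reads with several matches are not given in the sources used here. The deposited values are whole counts for 27179 genes per library, without normalization. 13 of the 45 genes have exons opposite another gene's exons, and 8 have a nearly identical pseudogene (BLAST+ 2.17.0, at least 95% identity over 150 bases, among GENCODE transcripts). Where counting split such reads is unknown.

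Counts were tested with edgeR 4.0.16 in R 4.3.3. filterByExpr (minimum count 10, minimum total count 15) kept 14069 genes. 1 quasi-likelihood model (TMM factors, robust, cell line as its only term) was fitted to all 6 libraries, and p-values (two-sided) were Benjamini-Hochberg adjusted over all tested genes, at 0.05. CPM use the TMM library sizes. The standard error of a log2 fold change was taken as its absolute value over the root of F. An exact permutation of 2 against 2 libraries cannot go below p = 0.333. The steps were tested on simulated data.

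The 45 genes and all lists were chosen with earlier results of these data known. Values in every library are given for the called genes, Mcm2 to Mcm7, E2f1 to E2f3 and Pcna, and at most 3 further genes are named per comparison, those with the smallest adjusted p. For the 12 genes of dividing cells, which the rule gave as a count, the called ones are named after their values were seen. Alternatives were DESeq2 1.42.0, other scalings and filters, a replicate term, only the 4 libraries compared, a loess length trend (span 0.5, lengths for 94.1% of genes), an adjusted p under 0.01, genes outside chromosomes 3, 15, 16 and 19, the chromosome median subtracted, and each library left out.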

Additional observations from a re-analysis of the deposited data

Results flagged for a closer look

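For 4 genes the CRY-expressing lines, each 1 clone, differed in the direct test. The log2 difference of CPN-/- CRY1 from CPN-/- CRY2 was 0.36 for Mcm4, 0.51 for Pola2, 0.43 for Rrm2 and 0.65 for Chaf1b, higher in both CPN-/- CRY1 libraries than in both CPN-/- CRY2 libraries for each gene. With the median of the gene's own chromosome subtracted, 0.01, 0.05, 0.41 and 0.31 remained, so that for Mcm4 and Pola2 little was left beyond the median of their chromosomes. Since CPN-/- is the common reference, this difference equals the difference between the lines' changes against it.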

How the results depend on the processing

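With 2 libraries per line and 1 clone per cryptochrome, calls near the threshold depended on the settings, and the cause was not tested. No called gene changed its sign in any of 17 alternatives. An adjusted p under 0.01 leaves the value as it was, so that its sign could not change. Subtracting the chromosome median gave no p-value, and a call was counted as kept there when its sign held. The counts of lower and higher genes, 5 and 2 in CPN-/- CRY1 against CPN-/-, became 8 lower with library size alone, 0 higher with upper-quartile factors, 1 higher with a minimum of 1 count, 3 and 0 in the fit to 4 libraries (7.31% and 5.58% of all genes), 11 and 4 without the length trend, 1 and 0 at an adjusted p under 0.01, 0 higher outside chromosomes 3, 15, 16 and 19, and 0 to 25 lower and 0 to 6 higher with a library left out. Their median, -0.14, became -0.073 without the length trend and -0.19 to -0.085 with a library left out. For CPN-/- CRY2 against CPN-/-, 1 and 0, the lower genes became 0 in the fit to 4 libraries and at an adjusted p under 0.01, 2 without the length trend (6.55% of all genes), 2 with DESeq2 and 0 to 27 with a library left out, where 0 to 1 were higher. The median, -0.19, became -0.13 without the length trend, -0.15 with the chromosome medians subtracted and -0.23 to -0.10 with a library left out. For CPN-/- CRY1 against CPN-/- CRY2, the counts were 0 and 4. With upper-quartile factors 1 was lower (8.93% of all genes). The fit to 4 libraries gave 8 and 11 (24.5% and 25.2%), and removing the length trend gave 3 and 6 (14.7% and 15.3%). At an adjusted p under 0.01 1 was higher, and so it was outside those chromosomes. Leaving out a library also moved the counts. The median, 0.02, became -0.016 outside those chromosomes, -0.025 with the chromosome medians subtracted and -0.01 to 0.03 with a library left out. The labels number the libraries 1 and 2 in each line but do not say that a number marks a shared day, and the correlations of same-numbered deviations were -0.08, 0.14 and -0.03. With the replicate number as a block, the counts were 5 and 1, 1 and 0, and 0 and 2. The shares of all genes in that fit were 12.8% and 11.7%, 3.99% and 2.96%, and 8.28% and 7.27%. Against CPN-/-, Mcm10 (edgeR adjusted p = 0.061) and Mcm4 (0.065) were then not called in CPN-/- CRY1 and Rpa2 (0.037) was, and against CPN-/- CRY2 Mcm4 and Rrm2 were not. Of the 38, 44 and 41 genes not called in these comparisons, 14, 12 and 8 changed sign under at least 1 alternative. Some of the genes not called were called under at least 1 alternative. How many of all tested genes did either was not counted.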
